A study of Mus musculus with 4 samples.

Results

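The Hox genes of the mouse were followed through reprogramming fibroblasts. A Hox gene was any gene on the array whose symbol reads Hox, a cluster letter from a to d and a number, and 1 probe set stood for each gene, the one with the highest mean over the 4 arrays. This rule found 33 genes among 18193 named genes. RefSeq assembly GRCm38.p6 lists 39 Hox genes, and the other 6 had no probe set annotated to them alone. Of the 33, 24 reached the floor on at least 1 array and are called measured. The floor was the median of all deposited values, a log2 level of 4.53, and 11428 genes in all reached it.

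The cells were mouse embryonic fibroblasts (MEFs), connective tissue cells grown from embryos, in the course of reprogramming toward a pluripotent state. Per the labels they were fixed, permeabilized, stained for the transcription factors Oct4 and Klf4 and the epithelial surface protein EpCAM, and sorted. The fractions were Oct4-negative cells, Oct4+Klf4-negative cells ("Klf4-negative" below), Oct4+Klf4+EpCAM-negative cells ("EpCAM-negative") and Oct4+Klf4+EpCAM+ cells ("EpCAM-positive"), with 1 array of amplified RNA each. The labels give no mouse strain, embryo age, part of the embryo, day of sorting or list of introduced factors, and do not tie the Oct4-negative cells to the same culture as the others. Each fraction had a single array, so differences could not be checked in replicates or tested, and it is this number of arrays that sets the precision.

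Hox genes encode homeodomain transcription factors that give cells their position along the body axis. In mammals they lie in 4 clusters, HoxA to HoxD, and genes that take the same place in different clusters are paralogues, numbered 1 to 13. Low numbers act toward the head and high numbers toward the tail, and the last genes of HoxA and HoxD also pattern the limbs from shoulder and hip to digits. Fibroblasts grown in culture are known to keep the Hox pattern of the body part they came from.

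The counts below use a size rule: higher and lower mean a difference of 2-fold or more in which the brighter array is at or above the floor. Array medians lay between 4.49 and 4.55. A background ceiling of 2.94 was set by 27 bacterial control probe sets that have no matching transcript. Between probe sets of the same gene, the log2 difference had a median SD of 0.122 to 0.177 over 5708 genes in the 4 comparisons, which holds no variation between cultures or sorts. Levels of different probe sets depend on the probes, so only differences between arrays are compared between genes.

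All measured HoxB genes, all measured HoxC genes but Hoxc6, and Hoxd8 to Hoxd11 had their highest level in the Klf4-negative cells, whereas 5 of 7 HoxA genes and Hoxd12 and Hoxd13 had theirs in the Oct4-negative cells. Of the 24 measured Hox genes, 15 (62.5%) had their highest level on the Klf4-negative array, against 25.1% of all measured genes. Among these 15, Hoxb3, Hoxb5, Hoxb6, Hoxb9 and Hoxc10 reached the floor only on arrays other than the Oct4-negative one. The floor thus favoured genes brighter elsewhere, and the share is a description and not support. The 15 also include Hoxa9, by its brighter probe set alone. Another 7 (29.2%) were highest on the Oct4-negative array, where 24.3% of all measured genes were. The EpCAM-negative array held the highest level of 2 (8.33%), Hoxa7 and Hoxc6, against 16.9% of all genes. None was highest on the EpCAM-positive array, which held the highest level of 33.7% of all measured genes. In these sorted populations, fewer cells that carry a transcript and less of it per cell cannot be told apart.

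**Figure D1:**
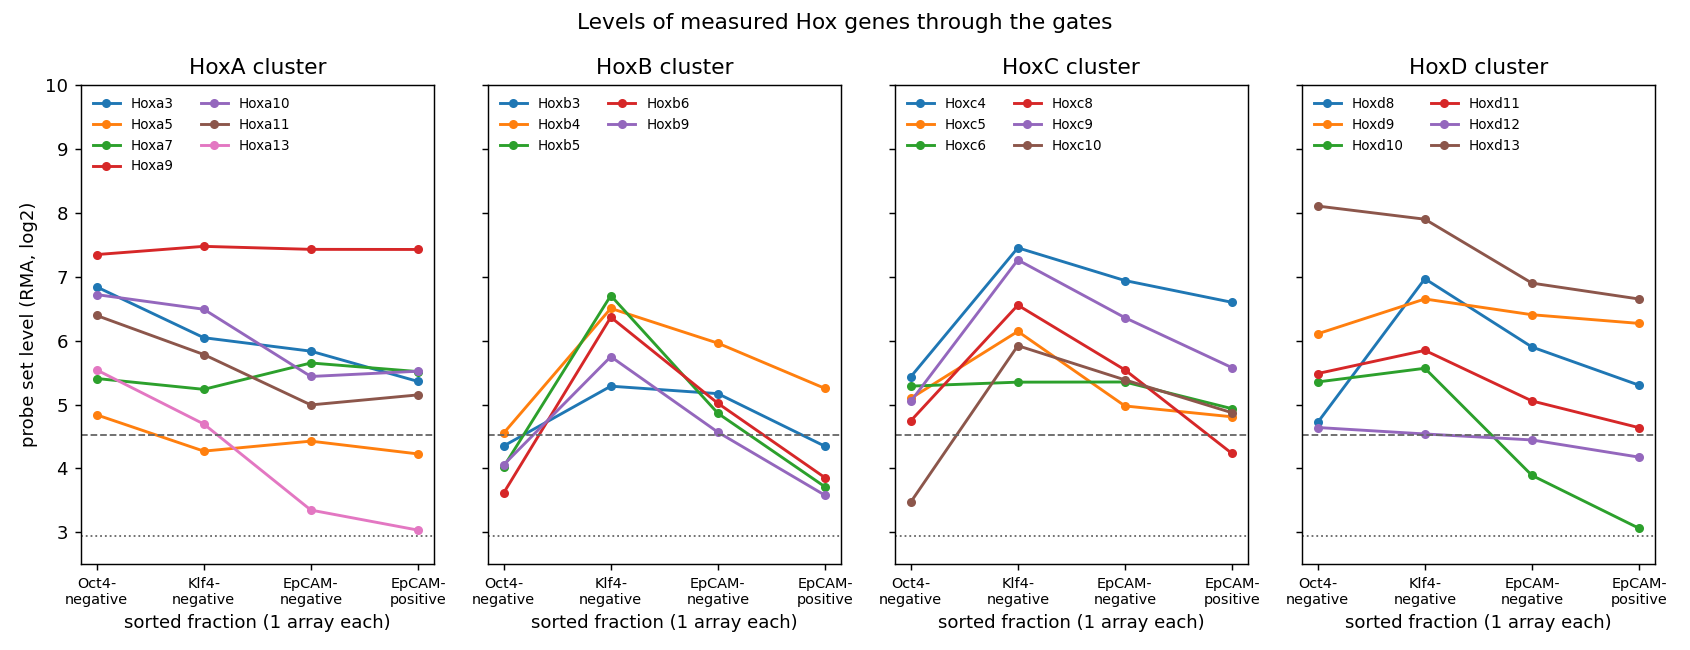
Level of each measured Hox gene (RMA, log2, y axis) on the array of each sorted fraction (x axis), with 1 panel per cluster; the dashed line is the floor of 4.53, the dotted line the background ceiling of 2.94, and heights of different genes are not comparable. All 5 HoxB lines peak at the Klf4-negative array, as do 5 of 6 HoxC lines, while 5 of 7 HoxA lines start at their highest point.

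At the Oct4 step, Klf4-negative against Oct4-negative cells, 10 of 24 measured Hox genes (41.7%) were higher, against 3.59% of all measured genes. All 10 lay in HoxB, HoxC or at Hoxd8. None was lower, where 4.84% of all measured genes were. The sign was positive for 16 of the 24, against 52.6% of all measured genes. Of the 10, 6 reached the floor on the Oct4-negative array as well. The other 4, Hoxb5, Hoxb6, Hoxb9 and Hoxc10, passed the floor only through brighter arrays and so had to differ, and the count is a description and not support.

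Within HoxB, Hoxb4, a gene of the neck vertebrae that expands blood stem cells when overexpressed, had log2 levels of 4.55 on the Oct4-negative, 6.50 on the Klf4-negative, 5.96 on the EpCAM-negative and 5.25 on the EpCAM-positive array. Hoxb5, which places the shoulder, had 4.03 on the Oct4-negative, 6.71 on the Klf4-negative, 4.86 on the EpCAM-negative and 3.71 on the EpCAM-positive array. For Hoxb6, which is expressed in trunk mesoderm, the levels were 3.62 on the Oct4-negative, 6.37 on the Klf4-negative, 5.02 on the EpCAM-negative and 3.86 on the EpCAM-positive array. All 3 were high on the Klf4-negative array and stepped down at each later gate, with the level of the EpCAM-positive array back near that of the Oct4-negative array for Hoxb5 and Hoxb6. The Oct4 step was 3.86-fold for Hoxb4, 6.39-fold for Hoxb5 and 6.71-fold for Hoxb6. Among the 11428 measured genes, 69 had a larger log2 difference at that step than Hoxb6 and 76 had a larger one than Hoxb5. Both passed the floor only through brighter arrays, so these ranks are a description and not support.

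Hoxb9, a gene of the rib cage, had levels of 4.06 on the Oct4-negative, 5.75 on the Klf4-negative, 4.57 on the EpCAM-negative and 3.58 on the EpCAM-positive array, a 3.23-fold difference at the Oct4 step. Hoxb3, which acts in the hindbrain and pharynx, had 4.35 on the Oct4-negative, 5.29 on the Klf4-negative, 5.17 on the EpCAM-negative and 4.35 on the EpCAM-positive array. Its Oct4 step of 0.93 on the log2 scale missed the size rule, and its second probe set gave 1.22. The cluster's other genes on the array, Hoxb1, Hoxb2, Hoxb7 and Hoxb13, stayed below the floor. In HoxB, then, 4 of 5 measured genes were higher at the Oct4 step, against 3.59% of all measured genes. Their median log2 difference was 1.95, against 0.02 over all measured genes. Of the 5, 4 reached the floor only on arrays other than the Oct4-negative one, so the floor favoured genes brighter elsewhere. Over all 9 HoxB genes on the array the median was 0.93.

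Within HoxC, Hoxc4, needed in the oesophagus and vertebrae, had levels of 5.43 on the Oct4-negative, 7.45 on the Klf4-negative, 6.94 on the EpCAM-negative and 6.60 on the EpCAM-positive array. Hoxc9, which sets thoracic motor neuron identity, had 5.05 on the Oct4-negative, 7.26 on the Klf4-negative, 6.36 on the EpCAM-negative and 5.58 on the EpCAM-positive array. Hoxc10, of the lumbar spinal cord, had 3.47 on the Oct4-negative, 5.92 on the Klf4-negative, 5.39 on the EpCAM-negative and 4.87 on the EpCAM-positive array. These 3 genes kept part of the difference: each was still above its Oct4-negative level on the EpCAM-positive array, by 1.17, 0.53 and 1.40 on the log2 scale. At the Oct4 step the difference was 4.05-fold for Hoxc4, 4.64-fold for Hoxc9 and 5.45-fold for Hoxc10.

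Hoxc8, a gene of brachial motor neurons and ribs, had 4.75 on the Oct4-negative, 6.56 on the Klf4-negative, 5.54 on the EpCAM-negative and 4.23 on the EpCAM-positive array. Hoxc5 had 5.10 on the Oct4-negative, 6.14 on the Klf4-negative, 4.98 on the EpCAM-negative and 4.81 on the EpCAM-positive array. Both peaked on the Klf4-negative array and ended below their Oct4-negative level, by log2 differences of -0.51 and -0.29 between the ends. The second probe set of Hoxc5 to reach the floor there gave 0.05 between the ends, so that the sign of this small difference is not settled. Hoxc6 went apart from its neighbours, with levels between 4.94 and 5.35 on the 4 arrays and a log2 difference of 0.06 at the Oct4 step. Its other probe sets, below the floor, gave 0.83 and 0.62 there. In all, 5 of 6 measured HoxC genes were higher at the Oct4 step, against 3.59% of all measured genes. The median log2 difference was 1.91, or 1.81 over all 7 HoxC genes on the array. Hoxc13 was below the floor on every array.

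The HoxD cluster divided along its length. Hoxd8 had levels of 4.72 on the Oct4-negative, 6.97 on the Klf4-negative, 5.90 on the EpCAM-negative and 5.30 on the EpCAM-positive array, 4.74-fold apart at the Oct4 step. Its neighbour Hoxd9, a gene of the upper limb segment, had 6.11 on the Oct4-negative, 6.65 on the Klf4-negative, 6.41 on the EpCAM-negative and 6.27 on the EpCAM-positive array. From Hoxd8 to Hoxd13 the log2 differences at the Oct4 step were 2.25, 0.54, 0.21, 0.36, -0.10 and -0.21. The size rule was thus passed at Hoxd8 and by none of the 5 genes from Hoxd9 on.

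**Figure D2:**
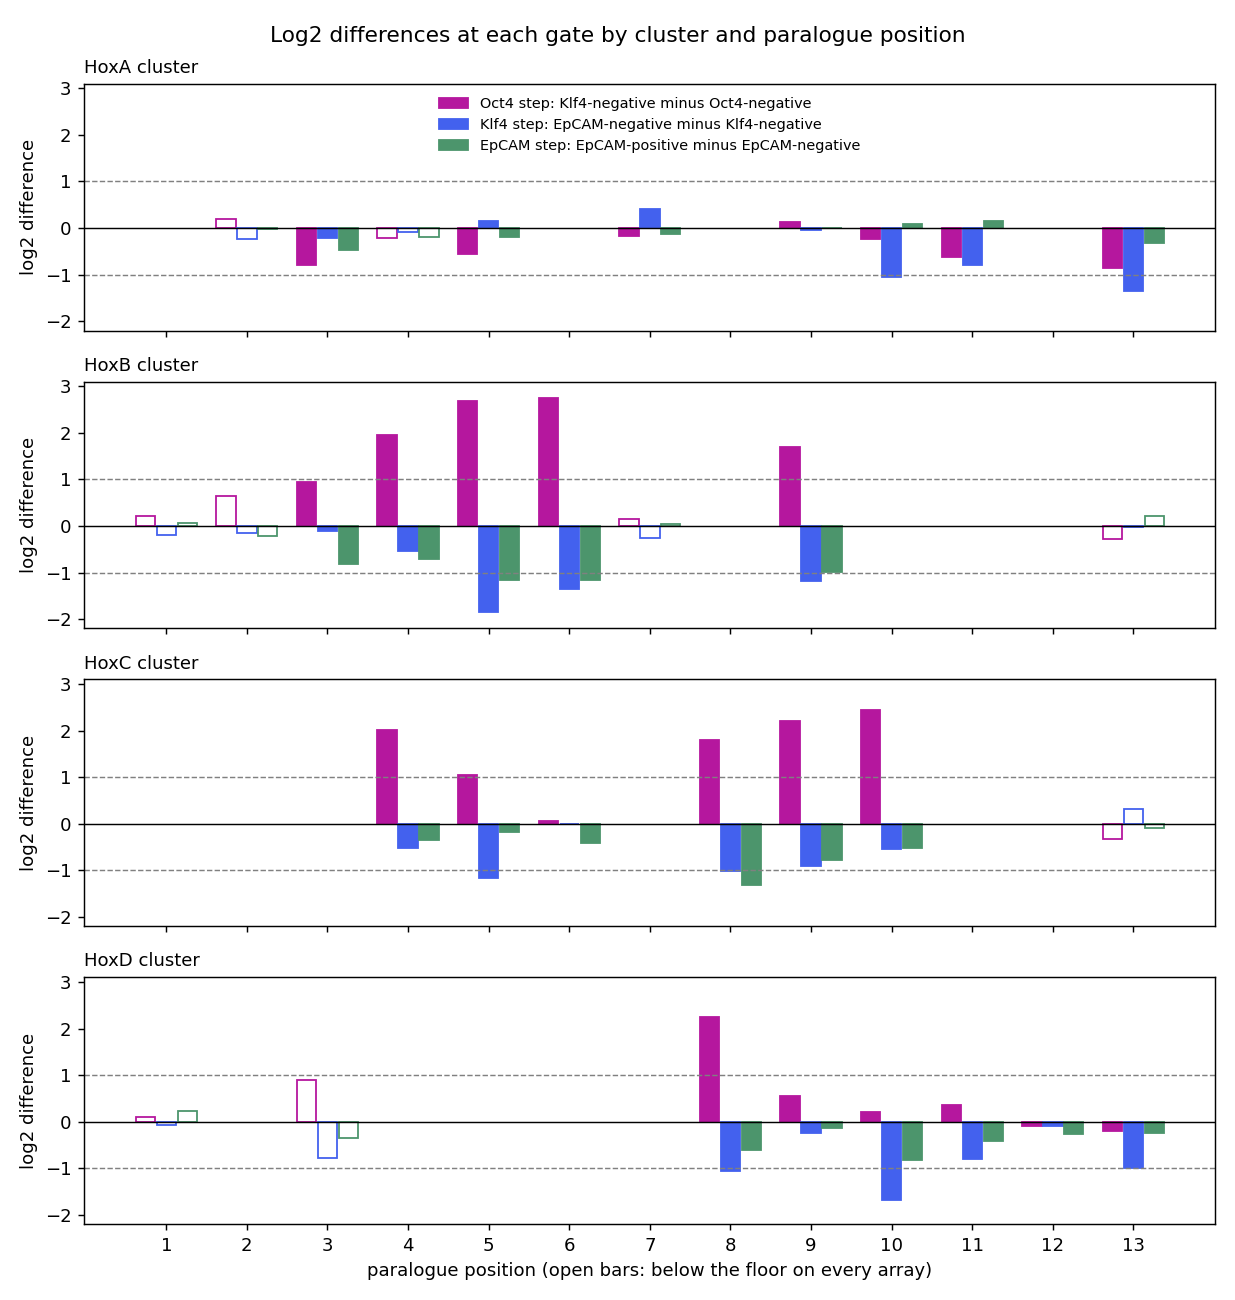
Log2 difference (y axis) of each Hox gene at the Oct4, Klf4 and EpCAM steps by paralogue position (x axis), with 1 panel per cluster; filled bars are measured genes, open bars genes below the floor, and dashed lines mark a 2-fold difference. Upward bars past the line stand at 4 positions of HoxB, 5 of HoxC and at Hoxd8, with none in HoxA.

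Paralogues in different clusters differed in size or sign of their difference. At position 5, the Oct4 step gave log2 differences of -0.57 for Hoxa5, which shapes lung and airway, against 2.68 for Hoxb5 and 1.05 for Hoxc5. At position 9 it gave 0.13 for Hoxa9, a regulator of blood progenitors, 1.69 for Hoxb9, 2.21 for Hoxc9 and 0.54 for Hoxd9. At position 10 it gave -0.23 for Hoxa10, 2.45 for Hoxc10 and 0.21 for Hoxd10. By class of position, 7 of 10 measured genes at positions 4 to 8 were higher and 3 of 12 at positions 9 to 13. Of all measured genes 3.59% were higher. Hoxb5 and Hoxb6 at positions 4 to 8, and Hoxb9 and Hoxc10 at positions 9 to 13, passed the floor only through brighter arrays. The median log2 differences of these 2 classes were 1.88 and 0.17 over measured genes. Over all their genes on the array they were 1.43 and 0.01. Of the 2 measured genes at positions 1 to 3, Hoxa3 and Hoxb3, neither was. Position and cluster are not separate here, because HoxA and HoxD hold 9 of the 12 measured genes at positions 9 to 13.

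HoxA genes had no member past the size rule at the Oct4 step (median log2 difference -0.57, range -0.85 to 0.13). Hoxa13, which with Hoxd13 forms the digits, had log2 levels of 5.54 on the Oct4-negative, 4.70 on the Klf4-negative, 3.35 on the EpCAM-negative and 3.04 on the EpCAM-positive array. Hoxa11, of the lower limb segment, had 6.39 on the Oct4-negative, 5.78 on the Klf4-negative, 4.99 on the EpCAM-negative and 5.15 on the EpCAM-positive array. Hoxa10, which patterns the lumbar spine and uterus, had 6.72 on the Oct4-negative, 6.49 on the Klf4-negative, 5.44 on the EpCAM-negative and 5.52 on the EpCAM-positive array. All 3 were highest on the Oct4-negative array and low on both arrays of Klf4-positive cells.

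Of the limb genes of HoxD, Hoxd13 had 8.11 on the Oct4-negative, 7.90 on the Klf4-negative, 6.90 on the EpCAM-negative and 6.65 on the EpCAM-positive array. Hoxd10, of lumbar motor neurons, had 5.35 on the Oct4-negative, 5.57 on the Klf4-negative, 3.89 on the EpCAM-negative and 3.06 on the EpCAM-positive array. Hoxd11, the partner of Hoxa11 in the forearm, had 5.49 on the Oct4-negative, 5.85 on the Klf4-negative, 5.06 on the EpCAM-negative and 4.64 on the EpCAM-positive array. In each of these 3 the difference at the Klf4 gate was larger in size than that at the Oct4 gate. Hoxd12 stayed between 4.18 and 4.64 around the floor on the 4 arrays.

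Of the other HoxA genes, Hoxa3 had a negative difference under 2-fold at each gate and was lower by the size rule between the ends alone, while Hoxa5, Hoxa7 and Hoxa9 passed it in no comparison. Hoxa3, which acts in pharynx, thymus and parathyroid, had 6.84 on the Oct4-negative, 6.05 on the Klf4-negative, 5.84 on the EpCAM-negative and 5.36 on the EpCAM-positive array. Hoxa7 lay between 5.24 and 5.65 and Hoxa5 between 4.23 and 4.84. The brighter probe set of Hoxa9 lay between 7.35 and 7.47, while its other probe set, also above the floor, had 6.67 on the Oct4-negative, 5.73 on the Klf4-negative, 6.31 on the EpCAM-negative and 6.42 on the EpCAM-positive array. The probe sets of Hoxa9 gave opposite signs at every step, so no direction is given for it. It counts among the 15 genes highest on the Klf4-negative array by its brighter probe set, while the other was lowest there.

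The sequences before the start sites are shown for 3 genes of each pattern with an entry in the RefSeq promoter table (GRCm38.p6), because Hox promoters are known for their density of CpG, the dinucleotide at which DNA is methylated and which Polycomb and Trithorax complexes recognise. Each run holds the 250 bases before the annotated start, 5′ to 3′ on the gene's strand, with every CpG in capitals. For the genes lower between the ends of the series, EpCAM-positive against Oct4-negative cells, these are Hoxa13 at chr6:52260881-52261130 (minus strand), Hoxd13 at chr2:74667975-74668224 (plus strand) and Hoxd10 at chr2:74691641-74691890 (plus strand). For the genes higher at the Oct4 step these are Hoxb4 at chr11:96318017-96318266, Hoxc4 at chr15:103034145-103034394 and Hoxd8 at chr2:74704365-74704614, all on the plus strand.
Hoxa13: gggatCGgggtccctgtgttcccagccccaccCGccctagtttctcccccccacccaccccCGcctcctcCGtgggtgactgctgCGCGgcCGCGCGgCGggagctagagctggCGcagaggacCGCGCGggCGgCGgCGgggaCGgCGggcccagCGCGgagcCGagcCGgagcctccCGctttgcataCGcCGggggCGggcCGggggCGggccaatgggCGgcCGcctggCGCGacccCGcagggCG
Hoxd13: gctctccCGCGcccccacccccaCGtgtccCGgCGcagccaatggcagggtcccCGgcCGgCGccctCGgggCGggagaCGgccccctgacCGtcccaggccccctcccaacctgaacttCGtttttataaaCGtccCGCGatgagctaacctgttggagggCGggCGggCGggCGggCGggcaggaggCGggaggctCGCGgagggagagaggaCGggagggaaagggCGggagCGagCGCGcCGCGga
Hoxd10: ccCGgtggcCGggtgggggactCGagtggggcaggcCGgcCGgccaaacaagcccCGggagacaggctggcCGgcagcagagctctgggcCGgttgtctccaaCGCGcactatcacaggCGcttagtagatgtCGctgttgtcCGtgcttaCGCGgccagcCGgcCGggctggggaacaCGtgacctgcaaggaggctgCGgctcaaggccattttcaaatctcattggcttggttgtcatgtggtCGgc
Hoxb4: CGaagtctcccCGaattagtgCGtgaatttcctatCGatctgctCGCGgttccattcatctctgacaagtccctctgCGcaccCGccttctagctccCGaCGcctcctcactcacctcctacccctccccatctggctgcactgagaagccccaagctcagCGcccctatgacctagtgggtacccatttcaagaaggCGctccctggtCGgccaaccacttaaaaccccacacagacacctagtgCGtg
Hoxc4: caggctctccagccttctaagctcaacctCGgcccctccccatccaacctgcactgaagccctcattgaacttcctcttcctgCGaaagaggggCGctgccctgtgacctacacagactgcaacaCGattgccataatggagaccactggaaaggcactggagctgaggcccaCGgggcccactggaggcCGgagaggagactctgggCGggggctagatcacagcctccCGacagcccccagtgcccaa
Hoxd8: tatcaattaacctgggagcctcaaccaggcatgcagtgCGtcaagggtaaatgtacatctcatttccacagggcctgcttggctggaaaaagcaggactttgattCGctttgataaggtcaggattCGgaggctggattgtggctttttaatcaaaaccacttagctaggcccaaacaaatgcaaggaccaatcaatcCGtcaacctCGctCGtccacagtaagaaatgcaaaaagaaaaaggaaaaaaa

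The runs of Hoxa13, Hoxd13 and Hoxd10 held 35, 31 and 20 CpGs, and those of Hoxb4, Hoxc4 and Hoxd8 held 14, 8 and 6. The median over 32851 promoter windows of the same length was 6. The table had 21 windows for 19 of the 33 Hox genes, and 17 of the 21 lay above that median (range 2 to 35). Among other genes lower between the ends, Hoxa3 had 18 CpGs, Hoxa11 had 13, and the alternative starts of Hoxa10 had 20 and 7, so the CpG count did not divide the patterns cleanly. Motifs were searched on both strands. The sequence CCAAT was found in 11 of the 21 windows and in 33.8% of all promoters. TTTATG, letters that Cdx and posterior Hox proteins bind, was found in 3 windows (10.8% of all), and TGATNNAT, a Hox and Pbx composite, in 3 (7.68% of all). TATAAA, the TATA box, was found in 2 windows (12.4% of all), and each motif was counted without regard to overlap with another. These matches describe the letters in the windows alone.

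At the Klf4 step, EpCAM-negative against Klf4-negative cells, 9 of 24 measured Hox genes (37.5%) were lower, against 6.88% of all measured genes. None was higher, where 8.44% of all genes were. Of the 9, 6 had also passed the rule upward at the Oct4 gate: Hoxb5 (3.59-fold lower), Hoxb6 (2.54-fold), Hoxb9 (2.27-fold), Hoxc5 (2.24-fold), Hoxd8 (2.10-fold) and Hoxc8 (2.02-fold). They passed the size rule against both neighbouring fractions, as did 1.82% of all measured genes. The Oct4 and Klf4 steps share the Klf4-negative array, so a reading that was high there by error would appear in both.

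The remaining 3 genes lower at the Klf4 step were Hoxd10 (3.19-fold), Hoxa13 (2.54-fold) and Hoxa10 (2.07-fold), which had not been higher at the Oct4 step. Hoxd10 and Hoxa13 were below the floor on the EpCAM-negative array (3.89 and 3.35) and passed it only through brighter arrays. Hoxd13 stood at the edge of the rule with 2.0-fold, and its second probe set gave a log2 difference of -0.76. Hoxc4, Hoxb4 and Hoxc10 gave -0.51, -0.54 and -0.54, and Hoxb3 -0.12. A positive difference was found in 53.3% of all measured genes and in 3 of the 24 Hox genes, Hoxa5 (0.16), Hoxa7 (0.41) and Hoxc6 (0.00).

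At the EpCAM step, EpCAM-positive against EpCAM-negative cells, 3 of 24 Hox genes (12.5%) were lower, against 1.79% of all measured genes, and none was higher, against 3.11%. They were Hoxc8 (2.48-fold), Hoxb6 (2.24-fold) and Hoxb5 (2.22-fold), and Hoxb9 stood just short of the rule at 1.98-fold. Each of these was below the floor on the EpCAM-positive array (4.23, 3.86, 3.71 and 3.58). They passed it only through brighter arrays, so the count is a description and not support. The sign was negative for 22 of the 24, Hoxa10 (0.08) and Hoxa11 (0.16) being the exceptions, where 49.5% of all measured genes were positive (median log2 difference -0.42, against -0.00 over all measured genes). By cluster, the median was -0.99 for HoxB, -0.47 for HoxC, -0.34 for HoxD and -0.14 for HoxA. All 10 genes that were higher at the Oct4 step had negative differences at both later steps.

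Between the ends of the series, EpCAM-positive against Oct4-negative cells, the clusters came out differently. In the EpCAM-positive cells 6 Hox genes (25%) were lower, against 10.8% of all measured genes, and 2 (8.33%) were higher, against 11.9%. The lower ones were Hoxa13 (5.68-fold), Hoxd10 (4.89-fold), Hoxa3 (2.79-fold), Hoxd13 (2.74-fold), Hoxa11 (2.37-fold) and Hoxa10 (2.30-fold), and the higher ones Hoxc10 (2.64-fold) and Hoxc4 (2.24-fold). The sign was positive for 9 of the 24, against 55.5% of all measured genes. In HoxB no gene passed the rule, with log2 differences from -0.48 for Hoxb9 to 0.70 for Hoxb4. The cluster medians were -1.20 for HoxA, -0.66 for HoxD, -0.00 for HoxB and 0.12 for HoxC. With the mean of all probe sets in place of the brightest, 2 HoxA genes rather than 4 were lower (median -0.71), and the HoxC median was 0.53. Without a floor the HoxC median was -0.08, so no direction is given for that cluster. Among the measured genes, 379 had a lower difference than Hoxd10 and 325 a lower one than Hoxa13. Both were below the floor on the EpCAM-positive array (3.06 and 3.04), as Hoxc10 was on the Oct4-negative array (3.47). These genes passed the floor only through brighter arrays, so their ranks and calls are a description and not support.

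**Figure D3:**
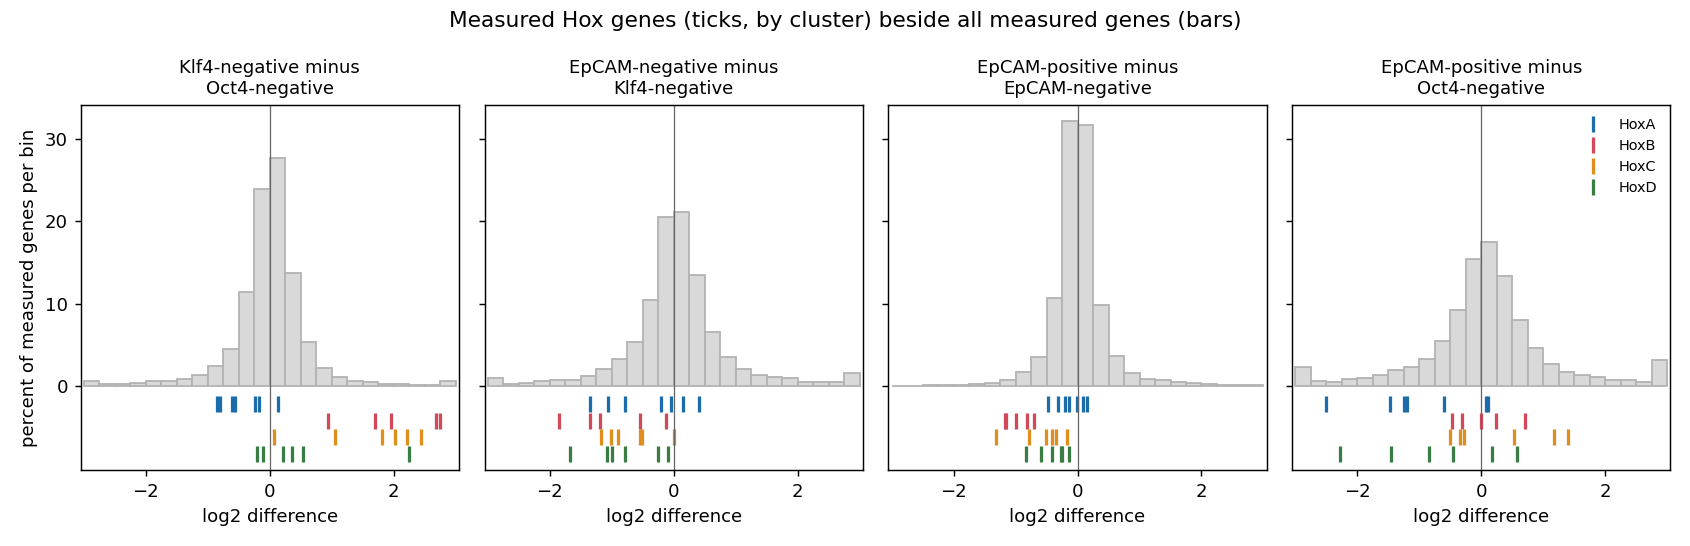
Distribution of the log2 difference (x axis) of all 11428 measured genes in each comparison (grey bars, percent per bin of 0.25, values beyond 3 in the outer bins) with 1 tick per measured Hox gene, in rows by cluster. At the Oct4 step the HoxB and HoxC ticks lie to the right of 0 and most HoxA ticks to its left; between the ends HoxA and HoxD ticks reach down to -2.51 and -2.29.

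Of the 24 measured genes, 10 had several probe sets, and 5 of them (Hoxa9, Hoxb3, Hoxc5, Hoxd8 and Hoxd13) had several that reached the floor. Signs agreed for 4 of these 5 at each of the 3 gates, Hoxa9 being the exception. Hoxd8 gave 2.25 and 2.20 at the Oct4 step by its 2 probe sets, and Hoxc5 gave 1.05, 1.72 and 1.96 by its 3. In GRCm38.p6, 8 Hox genes on the array overlap another Hox gene (Hoxa3, Hoxa4, Hoxa5, Hoxb3, Hoxb4, Hoxd3, Hoxd10 and Hoxd11), and their levels could include each other's transcripts.

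**Figure D4:**
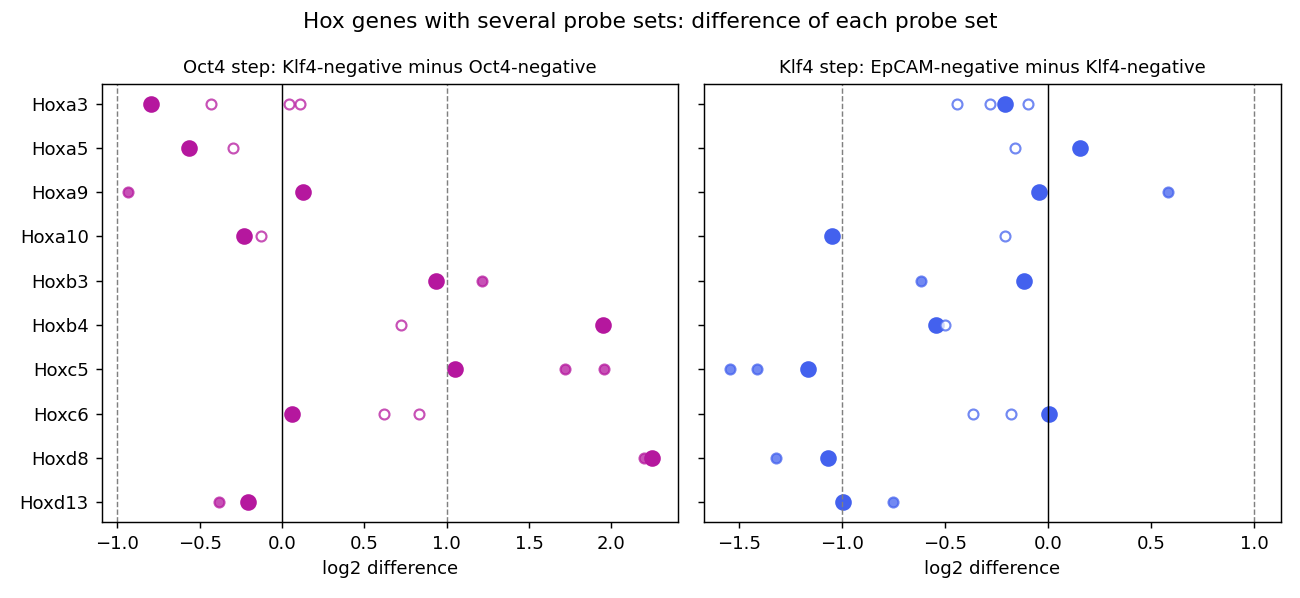
Log2 difference (x axis) of each probe set of the 10 measured Hox genes with several (y axis), at the Oct4 step on the left and the Klf4 step on the right; large dots are the probe sets used, filled dots reach the floor and open dots do not. The probe sets of Hoxd8 and Hoxc5 lie past 1 together at the Oct4 step, and those of Hoxa9 lie on both sides of 0.

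Non-coding transcripts of the clusters were read where the annotation gave them a probe set by gene identifier, a choice made after the Hox values were seen. Hoxd3os1, which overlaps Hoxd3, had 2.87 on the Oct4-negative, 6.21 on the Klf4-negative, 4.35 on the EpCAM-negative and 3.13 on the EpCAM-positive array, at least 9.66-fold higher at the Oct4 step. Hoxb5os, which overlaps Hoxb5 and Hoxb6, had 3.06 on the Oct4-negative, 4.86 on the Klf4-negative, 2.67 on the EpCAM-negative and 2.54 on the EpCAM-positive array. Hoxa11os, which overlaps Hoxa11, had 5.60 on the Oct4-negative, 4.72 on the Klf4-negative, 4.11 on the EpCAM-negative and 4.39 on the EpCAM-positive array. Each of these 3 was highest on the same array as the Hox genes it overlaps, though Hoxd3 itself stayed below the floor, and a second probe set of Hoxd3os1 had at most 3.46. A second probe set of Hoxa11os lay below the background ceiling on every array. Evx1os, which overlaps no Hox gene, lay between 2.55 and 3.17 and was highest on the EpCAM-negative array. Whether a probe set separates a gene from its overlapping partner was not tested.

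The 9 Hox genes below the floor had levels between 1.8 and 4.34. Of them Hoxa2, Hoxb1, Hoxc13 and Hoxd1 lay at or below the background ceiling on every array, and the rest were Hoxa4, Hoxb2, Hoxb7, Hoxb13 and Hoxd3. Over all 33 genes, the median log2 difference was 0.21 at the Oct4 step, -0.51 at the Klf4 step, -0.27 at the EpCAM step and -0.08 between the ends. Levels near the ceiling compress differences, so the absence of a 2-fold difference in these genes says little about their transcripts.

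The partners and regulators of Hox genes were read from gene lists. The list of TALE cofactors was named for proteins that bind DNA beside Hox proteins, though not every member is such a partner. Of its 9 measured members 1, Meis3, was higher at the Oct4 step (2.02-fold) and none was lower (median log2 difference 0.23). Of all measured genes 3.59% were higher and 4.84% lower there. Meis2 had 7.0 on the Oct4-negative, 7.85 on the Klf4-negative, 7.46 on the EpCAM-negative and 7.02 on the EpCAM-positive array, a peak on the Klf4-negative array that did not reach 2-fold. Meis1 did not reach the floor. None of the 10 Cdx, ParaHox and Hox-linked homeobox genes was measured, among them Cdx2, which turns on trunk Hox genes in the embryo, with levels of 2.69 to 2.92.

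Polycomb genes, whose complexes silence Hox clusters, had 16 measured members, with 4 higher and none lower between the ends (median log2 difference 0.46, against 0.07 over all measured genes, of which 11.9% were higher). They were Phc1 (4.43-fold), Cbx2 (3.03-fold), Cbx7 (2.30-fold) and Ezh1 (2.18-fold). At the Klf4 step 1 Polycomb gene passed the rule, Ezh1 (2.18-fold higher). Of 15 Trithorax and related genes, which keep Hox clusters active, 1 was lower at the Klf4 step, Mllt3 (2.24-fold), a share near the 6.88% of all measured genes. In the list of retinoic acid and axial signals, 3 of 11 measured genes were lower at the Oct4 step and none was higher (median log2 difference -0.39), where 4.84% of all measured genes were lower. They were Crabp1 (11.5-fold) and Crabp2 (7.39-fold), which bind retinoic acid in the cell, and the receptor Rxra (2.08-fold). At the Klf4 step 5 of the 11 were higher, against 8.44% of all measured genes, and none was lower. They were Crabp1 (6.33-fold), Lin28a (at least 4.49-fold), Nr6a1 (2.61-fold), Aldh1a3 (2.51-fold) and Crabp2 (2.16-fold). Lin28a was also listed as a marker of pluripotent cells, so the count is not one of retinoic acid genes alone.

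The genes that border the clusters were read from 1 list per cluster. Measured flanking genes numbered 5 for HoxA, 7 for HoxB, 7 for HoxC and 6 for HoxD. Among them the size rule was passed at the Oct4 step by Jazf1 alone, which lies beyond the HoxA border and was 3.89-fold higher there and 4.66-fold lower at the Klf4 step. Copz2, from the list for HoxB, was 4.39-fold lower at the Klf4 step and 9.60-fold lower between the ends. Of all measured genes, 3.59% were higher at the Oct4 step and 6.88% lower at the Klf4 step. The counts of flanking genes at these steps lay near those shares. Between the ends 10.8% of all measured genes were lower. Flanks of HoxC and HoxD had no gene past the rule in any of the 4 comparisons. Among 7 measured limb and body-wall position genes, none passed the rule at the Oct4 step and 3 were lower at the Klf4 step, against 6.88% of all measured genes: Tbx4 (2.81-fold), a hindlimb regulator, Grem1 (2.41-fold), a limb bud antagonist of bone morphogenetic proteins, and Tbx18 (2.06-fold). Tbx4 had 7.63 on the Oct4-negative, 7.17 on the Klf4-negative, 5.68 on the EpCAM-negative and 5.14 on the EpCAM-positive array, whereas Tbx5, of the forelimb, did not reach the floor. Of the 12 head position genes on the array only 3 were measured, and none of these passed the rule in any of the 4 comparisons. Among those below the floor, some were highest on the Klf4-negative array and others were not. The absence of a call thus says little about head position genes.

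The Oct4 and EpCAM labels were read against Pou5f1, the gene of Oct4, and Epcam. Pou5f1 was 14.8-fold higher at the Oct4 step and Epcam 7.91-fold higher at the EpCAM step. The Klf4 label was not read against its transcript. Markers of other cell types moved at the same gates as the Hox genes. At the Oct4 step the neural list (11 measured) had 9 higher members and 1 lower, where 3.59% and 4.84% of all measured genes were, and the summed linear level of the 14 on the array was 3791 on the Klf4-negative and 1046 on the Oct4-negative array. Among the neural regulators on the list, Sox1 had 2.90 on the Oct4-negative, 5.05 on the Klf4-negative, 9.10 on the EpCAM-negative and 9.03 on the EpCAM-positive array, at least 4.31-fold higher at the Oct4 step and 16.5-fold higher at the Klf4 step. The regulators Sox2, Pax6 and Isl1 were below the floor on every array. At the Klf4 step the neural list went both ways, 4 higher and 5 lower, where 8.44% and 6.88% of all measured genes were. The 5 lower ones, Nefl, Nefm, Map2, Elavl4 and Gap43, had all been higher at the Oct4 step. Nefm was at least 32.6-fold higher at the Oct4 step and 28.6-fold lower at the Klf4 step. The summed neural level was 4638 on the EpCAM-negative and 3791 on the Klf4-negative array. Of the HoxB and HoxC genes none was higher and 5 were lower at the Klf4 step. Of 12 measured fibroblast markers, 3 were higher and 3 lower at the Oct4 step. At the Klf4 step 1 was higher and 8 lower, where 8.44% and 6.88% of all measured genes were. None was higher and 5 were lower at the EpCAM step, where 3.11% and 1.79% of all measured genes were. Between the ends 1 was higher and 11 lower, where 11.9% and 10.8% of all measured genes were. The summed level of the list was 3505 on the EpCAM-positive and 16212 on the Oct4-negative array. Pdgfra, the fibroblast marker not measured, was below the floor on every array. All 8 epithelial markers were measured, and 7 were higher and none lower at the EpCAM step, where 3.11% of all measured genes were higher and 3 Hox genes were lower. The control probe sets of Gapdh differed between the 3′ and 5′ ends by 1.3 on the Klf4-negative array and by 0.97 to 1.04 on the others, while those of Actb differed by -0.0515 on the Klf4-negative array and by -0.0652 to -0.0565 on the others. The part of other cell types and of RNA quality in the Hox levels was not tested.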

How the data were processed

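RNA of 4 sorted fractions, 1 array each, was recovered after fixation with the RecoverAll kit and amplified with the Ovation Pico WTA kit, per the labels' protocols. Per the submitters' processing notes the deposited table came from RMA, which gives a log2 level per probe set. Its version and settings are not given in the sources used here, and scanner files were not used here. Fixation and amplification can alter a transcript's level according to its integrity.

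The table held 45101 probe sets. Genes were named through the platform annotation: 34945 probe sets other than the 64 controls carried a single symbol (1 each), 932 carried several and stood for no gene, and 9160 had no entry. The brightest probe set stood for a gene. A fold whose dimmer side did not exceed the background ceiling was computed from the ceiling and printed as a minimum ("at least"). RefSeq GRCm38.p6 gave gene neighbours, overlaps and promoter sequences. Summaries used Python 3.11.15, pandas 2.3.3 and numpy 2.4.6, and the calling step was tested on simulated data.

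No test was possible with 1 array per group. The Hox genes, the lists and the comparisons were chosen with earlier results of these data known, and the promoter sequences and non-coding transcripts shown were chosen after their values were seen. Every Hox gene could be named. Of the lists, members past the size rule (up to 4 a list), Meis1, Meis2, Cdx2 and the sorted factors could be. Tbx5, Sox1, Sox2, Pax6, Isl1, Nefl, Nefm, Map2, Elavl4, Gap43, Aldh1a3, Lin28a and Nr6a1 were named after their values were seen. The 5 alternatives tried were the mean of all probe sets, plain _at probe sets alone, a floor at the 75th percentile, no floor, and arrays centred on measured genes.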

Additional observations from a re-analysis of the deposited data

How the results depend on the processing

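With 1 array per fraction there were no replicates to leave out, and no paired analysis was possible because no result comes from a test. Under the mean of all probe sets, plain _at probe sets alone, and centred arrays, no count or median over all Hox genes changed sign, and the counts stayed within 1.5 times those reported. One value moved there: with the mean of all probe sets, 22 genes were measured and the median log2 difference at the Oct4 step was 0.81, against 0.45. Without a floor all 33 genes entered, and the medians were 0.21, -0.51 and -0.27 at the Oct4, Klf4 and EpCAM steps and -0.0801 between the ends. Raising the floor to the 75th percentile (a level of 6.87) left 5 genes. With these, 3 were higher at the Oct4 step (median 2.02), 1 was lower at the Klf4 step, 0 were lower at the EpCAM step, and between the ends 0 were higher and 1 was lower. The median between the ends then had the opposite sign, 0.53, against -0.33. For HoxA this floor left Hoxa9 alone, with 0.13 at the Oct4 step and 0.0798 between the ends, both of opposite sign to the cluster's medians, and for positions 9 to 13 it left 3 genes with a median of 0.0798 between the ends. The 5 genes kept at this floor were Hoxa9, Hoxc4, Hoxc9, Hoxd8 and Hoxd13. The sign of the median between the ends thus depended on the floor. Whether the smaller number of genes or the choice of bright ones moved these values was not tested. By cluster, the mean of all probe sets left 2 HoxA genes lower between the ends, against 4 reported (median -0.71, against -1.20), and moved the HoxC median there to 0.53, against 0.12. Without a floor the HoxC median there was -0.0801. Signal over background limits the 9 genes below the floor.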

Other observations

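Probe sets annotated to a pair of Hox genes were used for neither. One shared by Hoxd4 and Hoxd3 had log2 levels of 3.38 on the Oct4-negative, 4.61 on the Klf4-negative, 3.61 on the EpCAM-negative and 3.30 on the EpCAM-positive array, and the other had 2.25, 3.19, 2.40 and 2.77 on the same arrays. The probe set shared by Hoxb8 and Hoxb7 had 2.81 on the Oct4-negative, 3.67 on the Klf4-negative, 2.74 on the EpCAM-negative and 3.06 on the EpCAM-positive array. All 3 were highest on the Klf4-negative array, and 1 of them passed the floor there.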
